A study of Homo sapiens with 10 samples.

Results

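Transcripts of the machinery that carries a cell from G1 into S phase were followed in OCI-LY10 cells after CC-122. The genes were 10 listed D cyclins, cyclin-dependent kinases, kinase inhibitors, RB proteins and an E2F factor, and every probe that the platform's gene table names for them was taken, whatever its values. That gave 12 probes for 9 genes out of 48107 deposited probes, and CDKN2C, which encodes the inhibitor p18, had no probe named there and was not analysed here. OCI-LY10 is a single human line of diffuse large B-cell lymphoma, classed as activated B-cell-like. The 10 Illumina BeadChip arrays held 5 samples given 1 micromolar CC-122 for 18 hours and 5 given the solvent DMSO for the same time. CC-122 (avadomide) acts through cereblon, the part of an E3 ubiquitin ligase that picks its substrates, and causes the lymphoid transcription factors Ikaros and Aiolos to be degraded. Whether the replicates were separate cultures is not stated in the labels, and p-values therefore cover the spread among these 10 samples, possibly a technical one.

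D-type cyclins bind the kinases CDK4 and CDK6, and the active pairs phosphorylate the retinoblastoma protein RB1 and its relatives, which releases E2F transcription factors to switch on genes for DNA synthesis. INK4 inhibitors such as CDKN2C and CDKN2D block CDK4 and CDK6, while CDKN1B (p27) binds cyclin and kinase pairs and restrains CDK2. Among B cells, cyclin D3 is required for the expansion of germinal centre cells, and the level of p27 is set largely by turnover of the protein, which arrays do not measure.

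Of the 12 probes, 9 were detected on all 10 arrays (detection p-value below 0.05) and were tested, and they stood for 8 genes. CCND3 rose and E2F2 fell after CC-122, and the other 7 probes did not pass the test (limma across 17125 probes, two-sided, Benjamini-Hochberg adjusted p below 0.05). Across all probes tested 10.1% were called, 5.77% higher and 4.34% lower. Under median scaling, an alternative, 566 probes were higher and 105 lower, where the reported setting gave 988 and 744. The same 2 members had CC-122 and DMSO values with no overlap, as had 10.6% of all probes tested. The median log2 change was 0.01 over the 9 tested member probes and -0.015 over all probes tested. The median size of the change without its sign was 0.27 and 0.12. An unadjusted p below 0.05 (limma) was reached by 6 of the 9, both CDKN1B probes among them, and by 22.8% of all probes tested. As the members were chosen with earlier results of these data known, these contrasts are no test of the set.

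All 10 arrays detected the 6 B-cell markers that had a probe, and between 0 and 2 of 7 T and NK cell markers were detected per array. Of 7 monocyte markers, 0 to 2 were detected per array, and of 8 fibroblast and epithelial markers, 1 to 3. EPCAM, an epithelial marker, was detected on all 10 arrays, at 8.96 ± 0.27 with DMSO and 8.82 ± 0.13 after CC-122 (SD, n = 5 in each group, log2 difference -0.13, limma adjusted p = 0.589). The mean level of the B-cell markers was 9.80 to 9.96 on DMSO arrays and 9.76 to 9.94 after CC-122, on the log2 scale. Among the 6 were changes in both directions, with CD22 (-0.78, limma adjusted p = 2.7e-04) and MS4A1 (-0.36, limma adjusted p = 0.0272) lower, CD79B (0.27, limma adjusted p = 0.0170) and BLK (0.27, limma adjusted p = 0.0270) higher, and CD79A and CD74 not called. The part of these shifts in the results below was not tested. Median raw intensities were 74.0 to 81.6 on 9 arrays and 109 on CC-122 replicate 3, so the calls of CCND3 and E2F2 are also given without that array. In a bulk sample, fewer cells in a phase of the cycle and less transcript per cell cannot be told apart.

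For each gene that passed the test 1 promoter window is shown. E2F factors are known to act on E2F genes, and FOXO factors on cell cycle genes. The sequences are RefSeq windows of GRCh38.p14, from 250 bases before the annotated start to 50 bases from it on, read 5′ to 3′ on the strand of the gene. Capitals mark matches to the E2F motif TTTNNCGC or the FOXO motif TGTTTAC on either strand. The E2F2 window is chr1:23531184-23531483 (minus strand) and the CCND3 window, the farthest upstream of 3 annotated, is chr6:42048639-42048938 (minus strand).
E2F2: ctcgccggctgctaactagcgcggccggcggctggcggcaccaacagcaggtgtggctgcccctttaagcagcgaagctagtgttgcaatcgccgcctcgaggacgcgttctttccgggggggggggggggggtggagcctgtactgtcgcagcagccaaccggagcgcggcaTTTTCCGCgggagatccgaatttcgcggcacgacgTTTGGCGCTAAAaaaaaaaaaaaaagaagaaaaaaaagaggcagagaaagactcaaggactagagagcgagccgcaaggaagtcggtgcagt
CCND3: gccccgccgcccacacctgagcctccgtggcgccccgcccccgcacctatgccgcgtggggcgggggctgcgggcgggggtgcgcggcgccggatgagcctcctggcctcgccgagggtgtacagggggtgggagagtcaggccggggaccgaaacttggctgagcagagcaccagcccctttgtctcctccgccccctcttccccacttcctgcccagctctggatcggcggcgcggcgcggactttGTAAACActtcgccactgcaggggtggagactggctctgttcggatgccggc
The E2F2 window held 3 E2F matches, whose first bases lay at -77, -42 and -38 from the start site. The matches at -42 and -38 overlap and lie on opposite strands. Of 35116 windows of 300 bases in the same set, 6.89% held this motif. The printed CCND3 window held 1 FOXO match, at -2 on the opposite strand, against 3.42% of windows. That share is per window, and 3 windows were searched for CCND3. The others, chr6:41941759-41942058 and chr6:41939156-41939455, held neither motif and are not printed. Which of these starts the cells use was not tested. In all, windows were found for 9 of the 10 listed genes, CDKN2C included, 15 in number, of which 2 held an E2F match (E2F2 and CDKN2D) and 1 a FOXO match. The CHR element TTTGAA, through which DREAM acts, was in 1 of the 15, that of RBL2 at position 25, against 15.2% of all windows. The Ikaros core motif TGGGAA was in 3, those of RB1 and both of RBL2, against 24% of all windows. The RB1 window, the only window held for that gene, is chr13:48476200-48476499 (plus strand). Whether this window holds the main promoter of RB1 was not tested, and other starts of the gene were not examined. A match is a description of letters and shows no binding.

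CCND3, the gene of cyclin D3, was higher on every CC-122 array than on any DMSO array. Probe ILMN_1668721 read 9.12, 9.05, 9.32, 8.99 and 9.07 on DMSO replicates 1 to 5, as normalized log2 intensity. It read 9.60, 9.48, 9.53, 9.40 and 9.52 on CC-122 replicates 1 to 5. The highest DMSO value, 9.32 on replicate 3, lay close below the lowest CC-122 value, 9.40 on replicate 4. The mean went from 9.11 ± 0.13 to 9.51 ± 0.07 (SD, n = 5 in each group), a log2 change of 0.39 ± 0.08 (SE) or 1.31-fold, with a limma adjusted p of 0.00525. With CC-122 replicate 3 left out before normalization the change was 0.388 (limma adjusted p = 0.0143). The call was lost with median scaling in place of quantile normalization, at a log2 change of 0.480 (limma adjusted p = 0.114), and at 0.333 when CC-122 replicate 3 was also left out (limma adjusted p = 0.130).

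CCND2, the gene of cyclin D2, was at background. Probe ILMN_2067656 was detected on 0 of 10 arrays, and ILMN_1667081 was detected on 1, DMSO replicate 2, with a detection p-value of 0.00668. Raw intensities of ILMN_2067656 lay between 63.8 and 91.9, and those of ILMN_1667081 between 70.5 and 110, where the highest of each was read on the bright array CC-122 replicate 3. As neither probe was tested and both groups lay at background, no fold is given. CCND1, the gene of the remaining D cyclin, was detected on 0 of 10 arrays by its single probe. Cyclin D3 was thus the D cyclin whose transcript these probes measured above background.

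**Figure D1:**
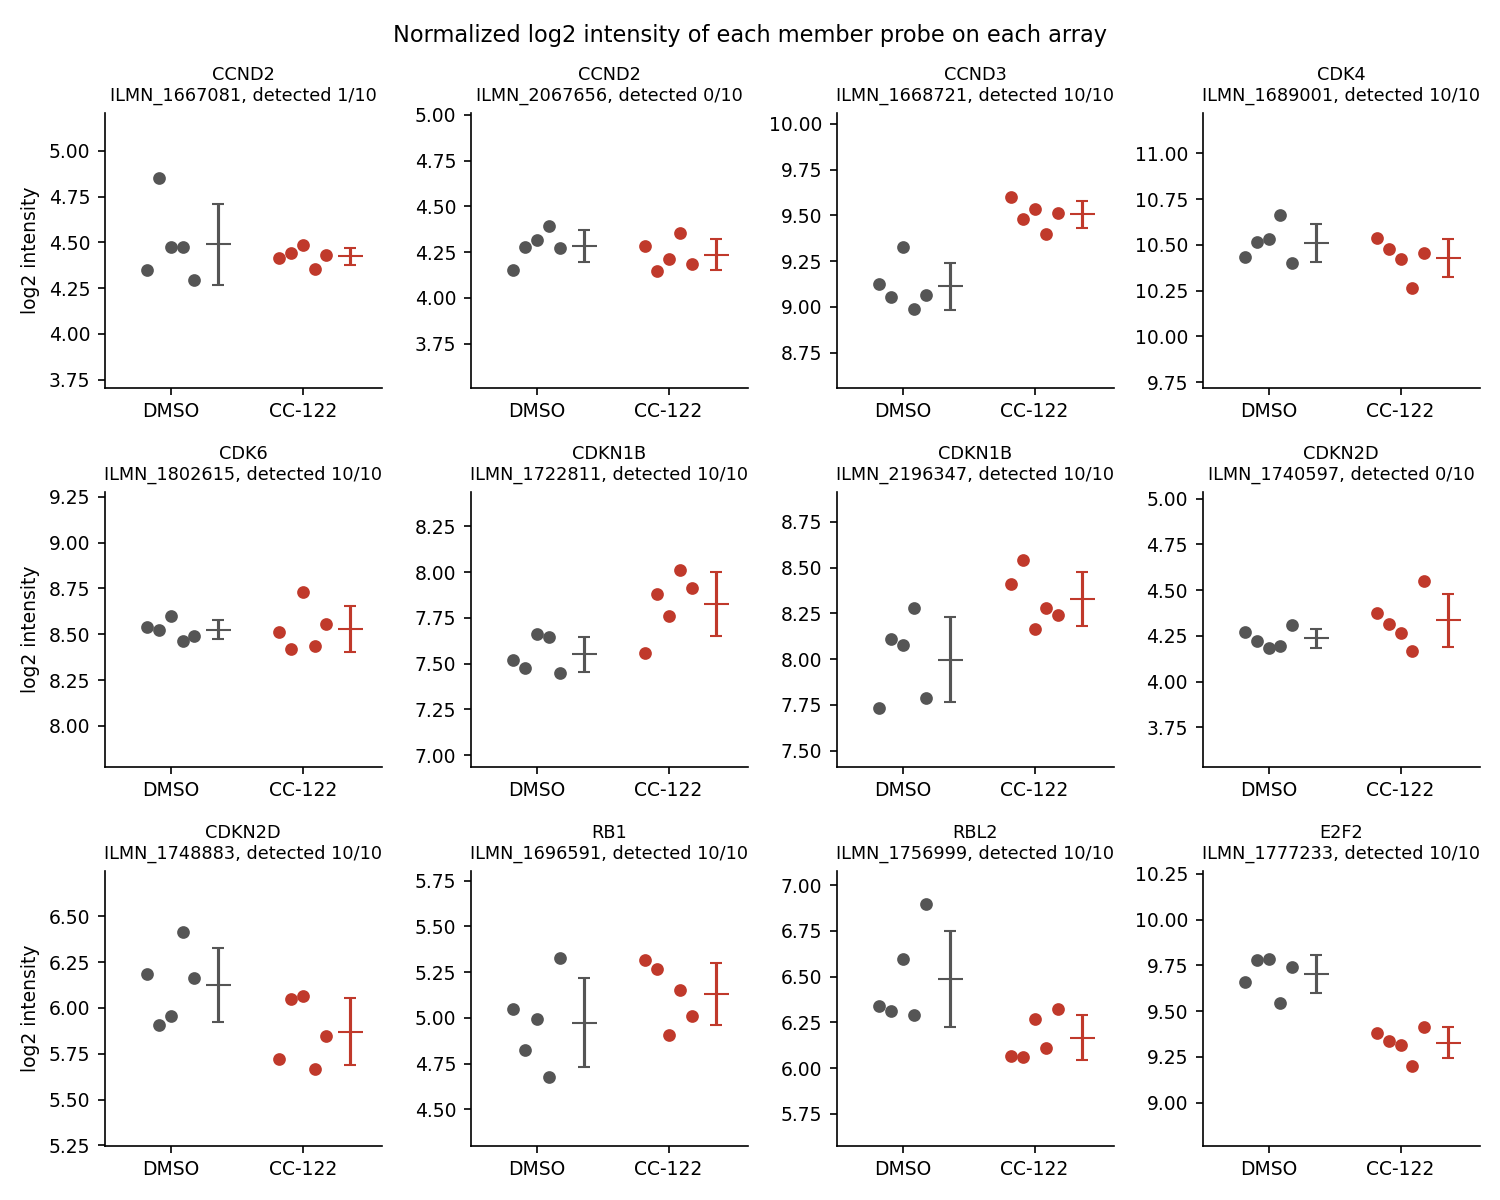
Normalized log2 intensity (vertical axis, every panel with the same span) of each of the 12 probes on 5 DMSO (grey) and 5 CC-122 (red) arrays; points are arrays in order of replicate number and the bars give mean and SD. The groups of CCND3 and E2F2 do not overlap, those of CDKN1B and RBL2 overlap in part, and both CCND2 probes and 1 CDKN2D probe lie near 4.2 to 4.9.

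Neither kinase gene that partners the D cyclins passed the test. CDK4 read 10.44, 10.52, 10.53, 10.66 and 10.40 on DMSO replicates 1 to 5 and 10.54, 10.48, 10.42, 10.26 and 10.46 on CC-122 replicates 1 to 5. Its groups overlapped, and the log2 difference was -0.08 (95% interval -0.25 to 0.09, limma adjusted p = 0.611). CDK6 read between 8.46 and 8.60 on DMSO arrays and between 8.42 and 8.73 on CC-122 arrays, with a log2 difference of 0.01 (95% interval -0.15 to 0.17, limma adjusted p = 0.972). Its highest value came from CC-122 replicate 3, and the difference was -0.043 without that array. The intervals of both genes exclude a change of the size seen for CCND3.

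CDKN1B, the gene of p27, was measured by 2 probes that read the same way and missed the threshold. ILMN_1722811 read 7.52, 7.48, 7.66, 7.65 and 7.45 on DMSO replicates 1 to 5 and 7.56, 7.88, 7.76, 8.01 and 7.91 on CC-122 replicates 1 to 5. Of the CC-122 arrays 4 lay above every DMSO array, and replicate 1 lay among them. ILMN_2196347 read 7.73, 8.11, 8.08, 8.28 and 7.79 on DMSO replicates 1 to 5 and 8.41, 8.54, 8.17, 8.28 and 8.24 on CC-122 replicates 1 to 5. Here CC-122 replicates 1 and 2 stood above all DMSO arrays, and the high DMSO reading was that of replicate 4. Both probes exceeded their DMSO mean on 5 of 5 CC-122 arrays. The log2 difference was 0.27 for the first (95% interval 0.08 to 0.47, limma adjusted p = 0.0848) and 0.33 for the second (95% interval 0.08 to 0.58, limma adjusted p = 0.0968). Both probes measure transcripts of 1 gene in the same samples and are not independent.

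Whether CDKN1B was called depended on the processing. Both probes passed with a fixed background offset of 50, at 0.235 (limma adjusted p = 0.0394) and 0.294 (limma adjusted p = 0.0322). They also passed without background correction, at 0.211 and 0.269, and with an intensity trend in the prior variance, where the differences were unchanged. ILMN_1722811 passed without CC-122 replicate 1 (0.339, limma adjusted p = 0.0228), and ILMN_2196347 passed without DMSO replicate 4 (0.401, limma adjusted p = 0.0447). The sign was positive in every alternative run for either probe.

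CDKN2D, the gene of the INK4 inhibitor p19, had 2 probes listed under different RefSeq transcripts, and 1 of them was not detected. ILMN_1740597 was detected on 0 of 10 arrays, with raw intensities from 63.1 to 97.0. ILMN_1748883 was detected on all 10 and read 6.19, 5.91, 5.96, 6.42 and 6.16 on DMSO replicates 1 to 5 and 5.72, 6.05, 6.07, 5.67 and 5.85 on CC-122 replicates 1 to 5. On 3 of the CC-122 arrays it lay below every DMSO array, while replicates 2 and 3 lay within the DMSO range. The log2 difference was -0.26 (95% interval -0.50 to -0.01, limma adjusted p = 0.201) and was not called in any alternative run, with -0.130 in the absence of background correction. CDKN1A (p21) and CDKN1C (p57), relatives of CDKN1B, were detected on 1 and 0 of 10 arrays. CDKN2A and CDKN2B, relatives of CDKN2D, were detected on all 10 arrays and not called (brightest probe of each). Their log2 differences were 0.19 (95% interval 0.05 to 0.33, limma adjusted p = 0.0973) and -0.04 (95% interval -0.29 to 0.21, limma adjusted p = 0.893).

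**Figure D2:**
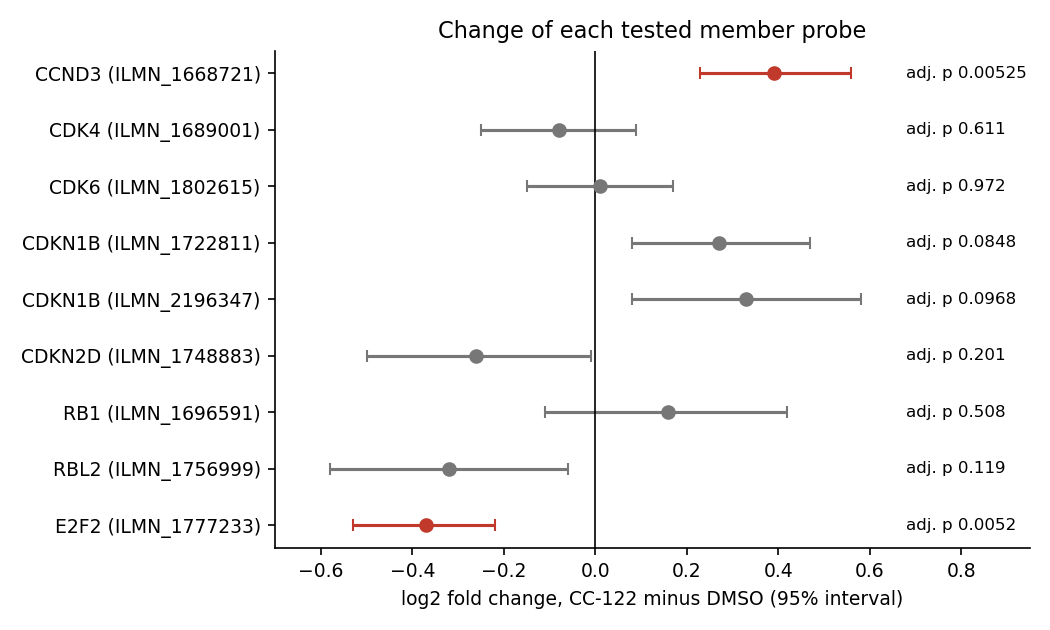
Log2 fold change of CC-122 minus DMSO (horizontal axis) with its 95% interval from limma for the 9 tested probes, with adjusted p-values at the right; red marks an adjusted p below 0.05. CCND3 at 0.39 and E2F2 at -0.37 are the 2 called, and the intervals of both CDKN1B probes, CDKN2D and RBL2 lie on 1 side of 0 without passing the adjustment.

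RB1 was close to background and did not pass the test. It read 5.05, 4.83, 4.99, 4.68 and 5.33 on DMSO replicates 1 to 5 and 5.32, 5.26, 4.91, 5.15 and 5.01 on CC-122 replicates 1 to 5, and its groups overlapped throughout. The lowest signals detected on these arrays lay at 4.63 to 4.67. The log2 difference was 0.16 (95% interval -0.11 to 0.42, limma adjusted p = 0.508), and 0.053 in the absence of background correction.

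RBL2, the gene of the RB relative p130, which with E2F4 or E2F5 represses cell cycle genes in resting cells, read lower after CC-122 but missed the threshold. It read 6.34, 6.31, 6.59, 6.29 and 6.90 on DMSO replicates 1 to 5 and 6.07, 6.06, 6.27, 6.11 and 6.32 on CC-122 replicates 1 to 5. On 4 of the CC-122 arrays it lay below every DMSO array. The high DMSO value of replicate 5 widened that group, and the log2 difference was -0.32 (95% interval -0.58 to -0.06, limma adjusted p = 0.119). Without background correction it was -0.184 (limma adjusted p = 0.0731). With the replicate number added to the fit as a block, RBL2 passed (limma adjusted p = 0.0450). RBL1, the gene of the related p107, differed by -0.04 (95% interval -0.31 to 0.23, limma adjusted p = 0.904).

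E2F2, one of the activating E2F factors, was lower on every CC-122 array than on any DMSO array. Probe ILMN_1777233 read 9.66, 9.78, 9.79, 9.54 and 9.74 on DMSO replicates 1 to 5 and 9.38, 9.33, 9.31, 9.20 and 9.41 on CC-122 replicates 1 to 5. The mean went from 9.70 ± 0.10 to 9.33 ± 0.08 (SD, n = 5 in each group), and DMSO was 1.30-fold above CC-122 (limma adjusted p = 0.00520). With CC-122 replicate 3 left out before normalization the log2 change was -0.371 (limma adjusted p = 0.0134). The call was lost with median scaling (-0.285, limma adjusted p = 0.635) and held with median scaling when that array was also left out (-0.421, limma adjusted p = 0.0430). Under median scaling, the median of the tested probes was 6.95 on CC-122 replicate 3 and 6.15 to 6.51 on the other arrays.

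Most other genes of the same pathway did not pass the test. Of 51 tested genes on 4 lists, 1 was higher and 6 were lower, where 7.13% of all 9041 genes tested were called higher and 5.38% lower (1 probe per gene, the brightest). Of 25 genes of the G1/S machinery, 6 were below the filter, 18 were not called and 1, E2F5, fell, with a median log2 change of -0.07 against -0.014 over all genes tested. E2F5, a repressive E2F that binds RBL2, fell by 0.34 ± 0.09 on the log2 scale (SE, limma adjusted p = 0.0246), from 9.25 to 9.46 on DMSO arrays to 8.79 to 9.24 on CC-122 arrays. E2F1, an activating factor like E2F2, differed by 0.01 (95% interval -0.39 to 0.41, limma adjusted p = 0.983), an interval that includes the change seen for E2F2. CDK2, which follows CDK4 and CDK6 in the cascade, differed by 0.13 (95% interval -0.03 to 0.28) and its partner CCNE1 (cyclin E1) by -0.07 (95% interval -0.25 to 0.11). CCNE2 (cyclin E2) was detected on 2 of 10 arrays and was not tested.

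Of 9 genes on the DREAM and MuvB list, LIN9 fell and 8 were not called, with a median of -0.11. The list spans subunits of MuvB and the genes MYBL1, MYBL2, FOXM1 and DYRK1A. LIN9, a core MuvB subunit, fell by 0.42 ± 0.11 on the log2 scale (SE, limma adjusted p = 0.0251), with an array of CC-122, replicate 2, at 7.03 and the others at 6.56 to 6.64, and differed by -0.271 without background correction. Of 16 tested E2F target genes, 2 fell and 14 were not called, with a median of -0.03. RRM2, a subunit of ribonucleotide reductase, fell by 0.32 ± 0.09 (limma adjusted p = 0.0357), and CDC45, part of the replicative helicase, fell by 0.26 ± 0.07 (limma adjusted p = 0.0275). Among 7 upstream regulators, FOXO1 rose, MYC and BCL6 fell and 4 were not called. FOXO1, a transcription factor that activates CDKN1B, rose by 0.32 ± 0.09 (limma adjusted p = 0.0393), or 0.209 without background correction. The related FOXO3 differed by 0.22 (95% interval 0.04 to 0.40, limma adjusted p = 0.126). The second probe of FOXO3 gave 0.02. MYC, which promotes entry into the cell cycle, differed by -0.49 on its brighter probe and by -0.73 on the other, both called. Without background correction these were -0.279 and -0.299, both still called, and with an offset of 50 the second was -0.409. BCL6, a repressor of germinal centre B cells whose targets include CCND2, fell by 0.55 ± 0.07 (limma adjusted p = 3.26e-04).

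Several of these calls lay near the threshold, and fits with 1 array left out, which have fewer samples, also made fewer calls over all probes (821 to 922 higher and 560 to 668 lower). E2F5 missed the threshold when DMSO replicate 1, 4 or 5 was left out, and likewise CC-122 replicate 2 or 3 (limma adjusted p up to 0.0584), while its log2 change stayed between -0.397 and -0.285 over the 10 fits. LIN9 missed it on leaving out DMSO replicate 4 or 5, and likewise CC-122 replicate 1, 3, 4 or 5 (limma adjusted p up to 0.0633), with changes of -0.502 to -0.363. CDC45 missed it on leaving out DMSO replicate 3 or 5, and likewise CC-122 replicate 1, 2 or 4 (limma adjusted p up to 0.0700), with changes of -0.285 to -0.232. RRM2 passed in the fits that dropped DMSO replicate 3 or CC-122 replicate 4 and had a limma adjusted p up to 0.0801 in the rest, with changes of -0.369 to -0.272. FOXO1 passed in those that dropped DMSO replicate 1 or CC-122 replicate 3 and had a limma adjusted p up to 0.0804 in the rest, with changes of 0.267 to 0.358. CCND3, E2F2, BCL6 and both MYC probes kept their calls in all 10 of these fits.

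Under median scaling all 7 calls on the lists were lost and each direction was kept. BCL6 was then at -0.465, the brighter MYC probe at -0.389, FOXO1 at 0.407, LIN9 at -0.331, E2F5 at -0.250, RRM2 at -0.228 and CDC45 at -0.175, each with an SE of 0.174, against 0.067 to 0.105 with quantile normalization. The second MYC probe, which did not stand for the gene on the list, stayed called at -0.645 (limma adjusted p = 0.00836). When CC-122 replicate 3 was also left out, BCL6 (-0.618, limma adjusted p = 0.00151) and the brighter MYC probe (-0.572, limma adjusted p = 0.00379) passed again.

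**Figure D3:**
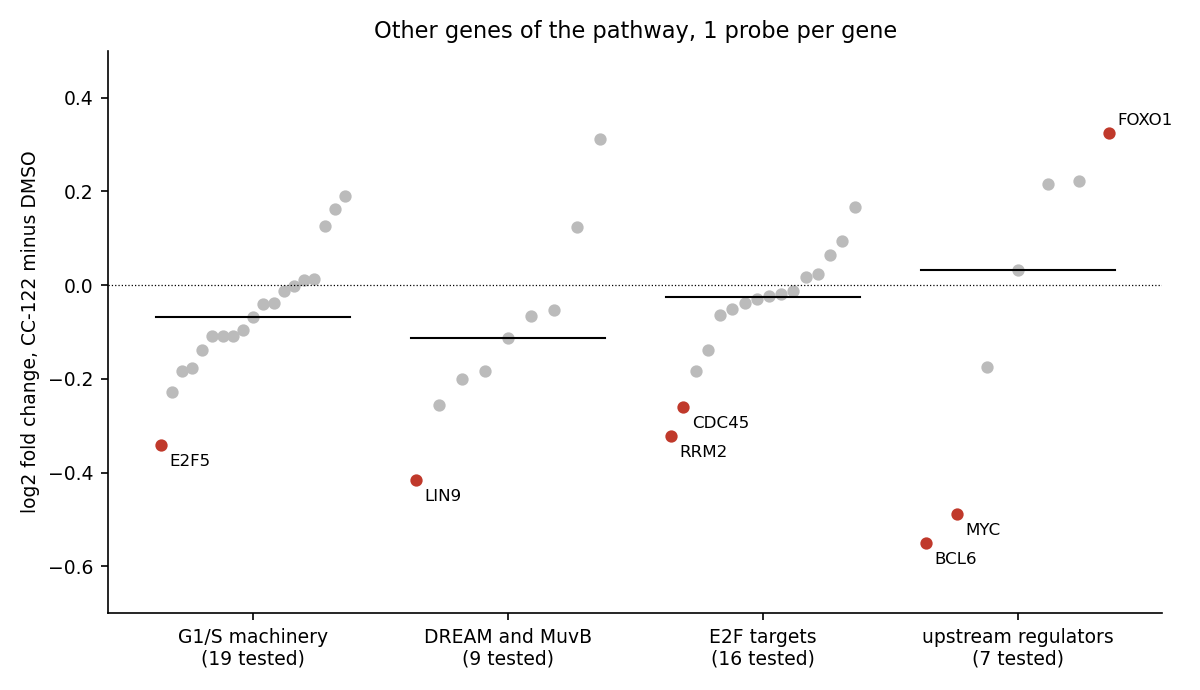
Log2 fold change of CC-122 minus DMSO (vertical axis) for each tested gene on 4 lists around the D cyclins and RB proteins, ordered by value within a list; red points passed an adjusted p below 0.05 and the horizontal line is the median of the list. Of 51 genes, FOXO1 was called higher, and E2F5, LIN9, CDC45, RRM2, MYC and BCL6 lower.

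**Figure D4:**
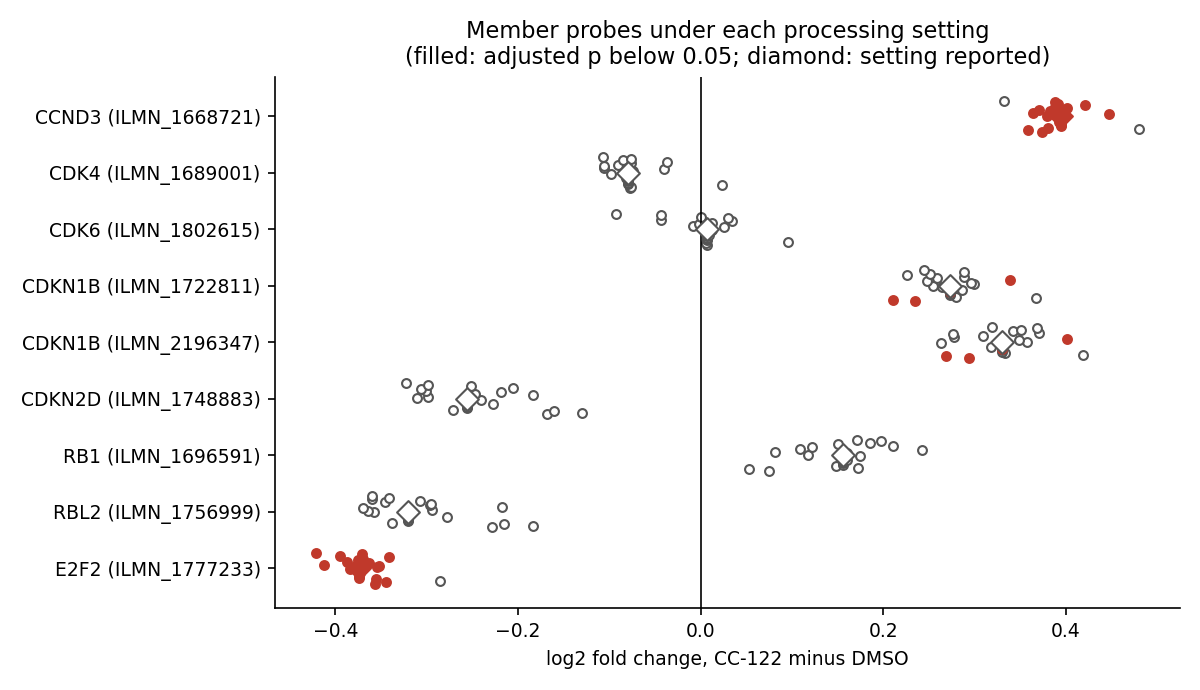
Log2 fold change of CC-122 minus DMSO (horizontal axis) of each tested probe under the setting reported (diamond) and each alternative (circles, spread vertically for legibility); filled symbols passed an adjusted p below 0.05. CCND3 and E2F2 are filled in nearly all settings, CDKN1B in a few, and CDK4 and CDK6 lie around 0.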

How the data were processed

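Labelled RNA from 10 samples was hybridised to Illumina BeadChips, and the authors deposited a non-normalized probe intensity on a linear scale, per the file headers and name, each with its own detection p-value. The authors also deposited normalized values on a log2 scale for 34468 probes, by a method not given in the sources used here. Each of these 10 columns matched its own array best (correlation of at least 0.99993, column medians of 4.54), and they served as an alternative.

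The neqc function of limma 3.58.1 (R 4.3.3) corrected the background, inferred from detection p-values, with an offset of 16 and quantile normalized the arrays. Of 48107 probes 1 lacked a value, and 17125 with a detection p-value below 0.05 on at least 5 arrays were kept. Members were found by symbol in the platform's gene table, and other symbols were updated through gene identifiers, of which 26326 of 26362 matched. Every kept probe was fitted with lmFit and eBayes (CC-122 against DMSO, two-sided) and adjusted together. Errors of changes are standard errors of that fit, and the number of arrays limits their precision. The calculation was tested on simulated data.

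The members, 4 pathway lists (59 genes), 4 marker lists and motifs were chosen with earlier results of these data known. All members were named whatever their values. From each pathway list up to 3 called genes per direction were named, with E2F1, RBL1, CCNE1, CCNE2, CDK2, CDKN1A, MYC, FOXO1 and FOXO3 in any case. CCND1, CDKN1C, CDKN2A and CDKN2B, which lie outside that rule, were added after their values were seen. Alternatives changed the background correction, normalization, filter, variance prior, array weights, probe choice, replicate block and arrays used. The files name no slide or scan.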

Additional observations from a re-analysis of the deposited data

Results flagged for a closer look

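One value of LIN9, a subunit of the MuvB core complex, stood far from the rest of its group. It was 7.03 on CC-122 replicate 2 against 6.56 to 6.64 on the other 4 CC-122 arrays, a gap of 0.839 of the range of the group. A total of 48 groups of 5 values were checked. There were 2 for each of the 12 member probes and of 12 other genes named under the rule above. Chance flags about 1 in 20 such groups. No value of a member probe was flagged.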

How the results depend on the processing

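The directions of CCND3, E2F2, both CDKN1B probes, CDKN2D, RB1 and RBL2 held in every alternative run. CCND3 was called in 20 of 22 and E2F2 in 21 of 22, with losses under median scaling only, and the cause was not tested. The alternatives with CC-122 replicate 3 left out before normalization, or together with median scaling, were chosen after seeing the data. The count of member probes called higher was 3, those of CCND3 and CDKN1B, with an offset of 50, without background correction and with an intensity trend. It was 0 with median scaling, with or without CC-122 replicate 3. Member probes called lower were 0 with median scaling and 2 with the replicate block, where RBL2 was added (limma adjusted p = 0.0450). With 1 array left out, 1 to 2 member probes were called higher (2 without DMSO replicate 4 or CC-122 replicate 1) and 1 lower. Over all probes 988 were higher and 744 lower. Median scaling gave 566 and 105, and 549 and 421 when CC-122 replicate 3 was also left out, while leaving out 1 array gave 821 to 922 higher and 560 to 668 lower. On the pathway lists 1 gene was higher and 6 lower. The higher count was 2 without background correction, and 0 with median scaling (also without CC-122 replicate 3), no filter or the replicate block. The lower count was 0 with median scaling and 2 when CC-122 replicate 3 was also left out. With 1 array left out it was 2 to 5, and 0 to 1 were higher. It was 2 without DMSO replicate 5, and 3 without DMSO replicate 4, CC-122 replicate 1 or CC-122 replicate 2.

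Uncalled differences near 0 changed sign. CDK6 ranged from -0.043 to 0.035 with 1 array left out and was at -0.008 without DMSO replicate 4, -0.002 without DMSO replicate 5, -0.043 without CC-122 replicate 3 (in the fit or before normalization) and -0.093 when median scaling was added. With median scaling CDK4 was at 0.024, RBL1 at 0.024 and CCNE1 at 0.020. E2F1 ranged from -0.141 to 0.125 with 1 array left out, with -0.010, -0.023 and -0.082 without DMSO replicates 1, 3 and 4, and -0.011 with median scaling without CC-122 replicate 3. RBL1 ranged from -0.131 to 0.024 with 1 array left out, at 0.024 without DMSO replicate 3 and 0.018 without CC-122 replicate 1.

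Deviations from the group mean of samples with the same replicate number had correlations of -0.005 to 0.144, above 0.1 in 1 of 5 pairs. Their headers carry consecutive numbers, and the labels do not say whether they shared a culture or day. Whether the number marks a pairing therefore cannot be settled here, and the reported fit did not take it as such. DMSO arrays correlated best with their own number in 4 of 5 cases and CC-122 arrays in 2 of 5. With the replicate block LIN9, RRM2 and FOXO1 lost their calls (limma adjusted p of 0.0630, 0.0581 and 0.0732). A slide or scan block was not run, as the files give neither. Signal limits CCND2 and 1 CDKN2D probe, which lay at background.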
